A study of Mus musculus with 9 samples.

Results

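The genes described here are the 10 that set sodium reabsorption at the end of the mouse nephron: Slc12a3, the kinases and adaptor of the WNK pathway (Wnk1, Wnk4, Stk39 and Klhl3), the 3 subunits of the epithelial sodium channel (Scnn1a, Scnn1b and Scnn1g), and the steroid receptor Nr3c2 with the enzyme Hsd11b2. They were taken by name from the 32427 genes listed over 9 single-cell matrices, and all 10 had UMIs, that is, counted RNA molecules, in every mouse. Their levels were read by mouse, group and cell class. The kidneys came from male C57BL/6 mice that were 6 weeks old at the start. Control mice (n = 3) received saline, injected intraperitoneally. AKI-CKD mice (n = 3) received cisplatin, a platinum drug toxic to the tubule, at 8 mg/kg intraperitoneally once a week for 4 weeks, which takes acute kidney injury towards chronic kidney disease. AKI-CKD + EGT mice (n = 3), also called EGT-treated mice, had the same injections and drank ergothioneine (EGT), a sulphur-containing antioxidant taken up from food, at 0.5 mg/mL, or about 100 mg/kg/day, from 3 days before the cisplatin to the end at 8 weeks. No group received EGT without cisplatin. The study treated 6 mice per group, and 3 of each are in these libraries.

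The 9 libraries held 70106161 to 101525691 UMIs each, and 196925 of 216680 barcodes were kept as cells, with a median of 2714 UMIs. Cell classes were rebuilt from marker genes that included none of the 10 genes, and each name below stands for cells like that type. The 6 distal classes together held 15600 cells. They were the thick ascending limb (TAL, 4770 cells), the distal convoluted tubule (DCT, 4550), the connecting tubule (CNT, 3479), principal cells (PC, 1529) and type A and type B intercalated cells (IC-A, 527, and IC-B, 745). The smallest number of cells in 1 mouse was 223 for DCT, 89 for PC and 28 for IC-A. Proximal tubule cells made up 83.7% of all kept cells, and RNA of their markers was found in every distal class: all 10 of 10 proximal markers had UMIs in DCT cells, and their summed level there was 34223 to 51811 CPM (UMIs scaled to 1000000 per class and mouse) in Control, 14445 to 35491 in AKI-CKD and 23878 to 43678 in the EGT-treated mice. Cell names were shared between libraries, 3583 to 7810 for each of the 36 pairs, but no count profile occurred in more than 1 library. AKI-CKD + EGT mouse 3 stood apart: 27.7% of its barcodes were removed for mitochondrial UMIs over 15%, against 17.0% in Control mouse 1 and 0.909 to 7.94% in the other libraries.

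Slc12a3 encodes NCC, the thiazide-sensitive sodium chloride cotransporter of the apical membrane. Its activity is set by phosphorylation: the WNK kinases, encoded by Wnk1 and Wnk4, activate SPAK, the kinase encoded by Stk39, and SPAK phosphorylates the cotransporter, while Klhl3 presents the WNK kinases to a ubiquitin ligase for degradation. Further downstream, sodium enters through the channel ENaC, built from the alpha, beta and gamma subunits that Scnn1a, Scnn1b and Scnn1g encode. Aldosterone acts through the mineralocorticoid receptor, encoded by Nr3c2, to raise sodium uptake, and Hsd11b2 inactivates glucocorticoids so that the receptor answers to aldosterone. RNA levels say nothing of phosphorylation or of the place of these proteins in the cell. Wnk1 has a short form made in the kidney beside the long kinase, and counts per gene cannot tell them apart.

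Promoter sequences were taken from RefSeq (GRCm38.p6, another build than that of the count files) and matched 8 of the 10 genes. Scnn1a and Hsd11b2 were not among them. The 250 bases before the start are shown for 4 genes, as examples of members whose levels, given further on, were highest in DCT cells (Slc12a3 and Wnk4) or in PC cells (Scnn1b and Scnn1g). Slc12a3 lies at chr8:94328958-94329207, Wnk4 at chr11:101260317-101260566, Scnn1b at chr7:121864788-121865037 and Scnn1g at chr7:121734229-121734478, all on the plus strand. Capitals mark GCCNNNGGC, a palindrome of the kind AP-2 factors bind, which reads the same on both strands.
Slc12a3: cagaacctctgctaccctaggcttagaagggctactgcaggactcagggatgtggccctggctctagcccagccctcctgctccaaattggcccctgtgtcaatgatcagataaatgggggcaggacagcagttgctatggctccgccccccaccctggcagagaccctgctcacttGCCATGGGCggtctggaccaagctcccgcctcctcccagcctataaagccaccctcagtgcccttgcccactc
Wnk4: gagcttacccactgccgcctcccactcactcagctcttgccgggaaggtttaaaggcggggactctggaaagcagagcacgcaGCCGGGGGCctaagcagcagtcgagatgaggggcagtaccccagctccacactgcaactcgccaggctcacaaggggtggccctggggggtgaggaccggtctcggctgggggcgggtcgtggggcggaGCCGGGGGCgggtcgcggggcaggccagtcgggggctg
Scnn1b: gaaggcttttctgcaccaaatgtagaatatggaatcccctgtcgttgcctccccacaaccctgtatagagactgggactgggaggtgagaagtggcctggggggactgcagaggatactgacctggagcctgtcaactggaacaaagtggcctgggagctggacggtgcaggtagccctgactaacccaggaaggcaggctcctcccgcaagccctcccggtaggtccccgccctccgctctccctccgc
Scnn1g: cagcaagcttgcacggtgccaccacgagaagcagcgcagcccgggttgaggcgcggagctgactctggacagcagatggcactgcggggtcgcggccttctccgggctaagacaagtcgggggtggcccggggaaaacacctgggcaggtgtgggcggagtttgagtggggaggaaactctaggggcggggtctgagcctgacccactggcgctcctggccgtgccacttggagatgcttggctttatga
The palindrome occurred 1 time in the Slc12a3 promoter, beginning at base -73 from the start, and 2 times in that of Wnk4, at -167 and -38. It also occurred 1 time each in those of Wnk1 and Stk39 and in none of those of Klhl3, Scnn1b, Scnn1g and Nr3c2. Of all 32851 promoter windows of this length, 13.7% held it. AGAACA, the half-site of the glucocorticoid and mineralocorticoid receptors, was looked for on both strands and occurred in 0 of the 8 windows, against 16.1% of all windows. A match is a run of letters and not a site shown to be used.

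Each gene had its own place along the nephron, and these levels are a description, since the classes were made from the same cells. Levels are in CPM, as mean ± SD over the 9 mice. Slc12a3 was measured at 5128 ± 1229 CPM in DCT and 1401 ± 441 CPM in CNT cells, and the 2 ranges over mice did not overlap. The next class was not a tubule class at all. Endothelial cells, which should lack the cotransporter, held 137 ± 127 CPM, and TAL cells held 94.4 ± 58.3. A UMI of Slc12a3 was found in 83.6% of DCT cells (median depth 2169.5 UMIs), 42.1% of CNT cells, 14.4% of endothelial cells (median depth 2487) and 11.8% of a sample of 20000 proximal tubule cells. With each cell thinned to 1000 UMIs the shares were 75.2%, 33.4%, 6.39% and 4.56%. The mean of Slc12a3 in TAL, PC, IC-A and IC-B cells was thus no higher than in endothelial cells and is read as background, not as expression, and where these UMIs came from was not tested. One small TAL cluster of 253 cells stood above this, at 611 ± 388 CPM.

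The WNK pathway genes followed the cotransporter to different degrees. Wnk1 was measured at 997 ± 230 CPM in DCT and 857 ± 236 CPM in CNT cells, with overlapping ranges, and at 227 ± 27.6 CPM in TAL cells. Wnk4 was highest in DCT cells (536 ± 62.5 CPM), then in CNT (279 ± 72.9) and TAL cells (228 ± 38.9), the last 2 overlapping. Klhl3 had the same order at its top, 428 ± 78.2 CPM in DCT and 210 ± 45.6 CPM in CNT cells, with 45.2 ± 13.7 CPM in PC cells next. Stk39 did not set DCT cells (154 ± 20.6 CPM) apart from PC cells (146 ± 51.0 CPM), which overlapped, and TAL cells followed at 97.8 ± 17.9 CPM. CNT cells, second for Slc12a3, held 67.7 ± 11.6 CPM and lay wholly below DCT cells. Proximal tubule cells held 4.34 ± 3.20 CPM.

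The 3 channel subunits did not share one distribution. Scnn1a was the widest, at 411 ± 102 CPM in PC, 399 ± 65.4 in IC-B, 314 ± 102 in IC-A, 271 ± 32.1 in CNT, 206 ± 38.2 in DCT and 110 ± 24.8 CPM in TAL cells, and each of the first 4 overlapped the class after it. Scnn1b was measured at 498 ± 111 CPM in PC, 187 ± 12.8 CPM in CNT and 161 ± 58.1 CPM in IC-A cells, and in DCT cells at only 10.5 ± 3.12 CPM. Scnn1g was held still more closely to PC (263 ± 77.7 CPM) and CNT cells (144 ± 21.5 CPM), with 2.39 ± 2.70 CPM in DCT cells, under the 5.11 ± 4.22 CPM of endothelial cells. Cells with UMIs of both Slc12a3 and Scnn1b made up 9.47% of CNT cells, 2.33% of DCT cells and 0.505% of endothelial cells. In PC cells this share was 7.85%, where Slc12a3 alone was at background.

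The receptor and its guarding enzyme also peaked in PC cells. Hsd11b2 was measured at 3472 ± 906 CPM in PC, 801 ± 187 CPM in CNT, 412 ± 195 CPM in IC-A and 193 ± 119 CPM in IC-B cells. It fell off between CNT and DCT cells, where 11.1 ± 5.89 CPM was below the 23.8 ± 13.3 CPM of endothelial cells. Nr3c2 was spread more evenly, at 363 ± 122 CPM in PC, 158 ± 105 in IC-A, 155 ± 64.7 in CNT, 86.2 ± 27.7 in DCT, 42.7 ± 17.0 CPM in TAL cells, with 17.5 to 61.6 CPM in endothelial cells, and each class overlapped the next.

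**Figure D1:**
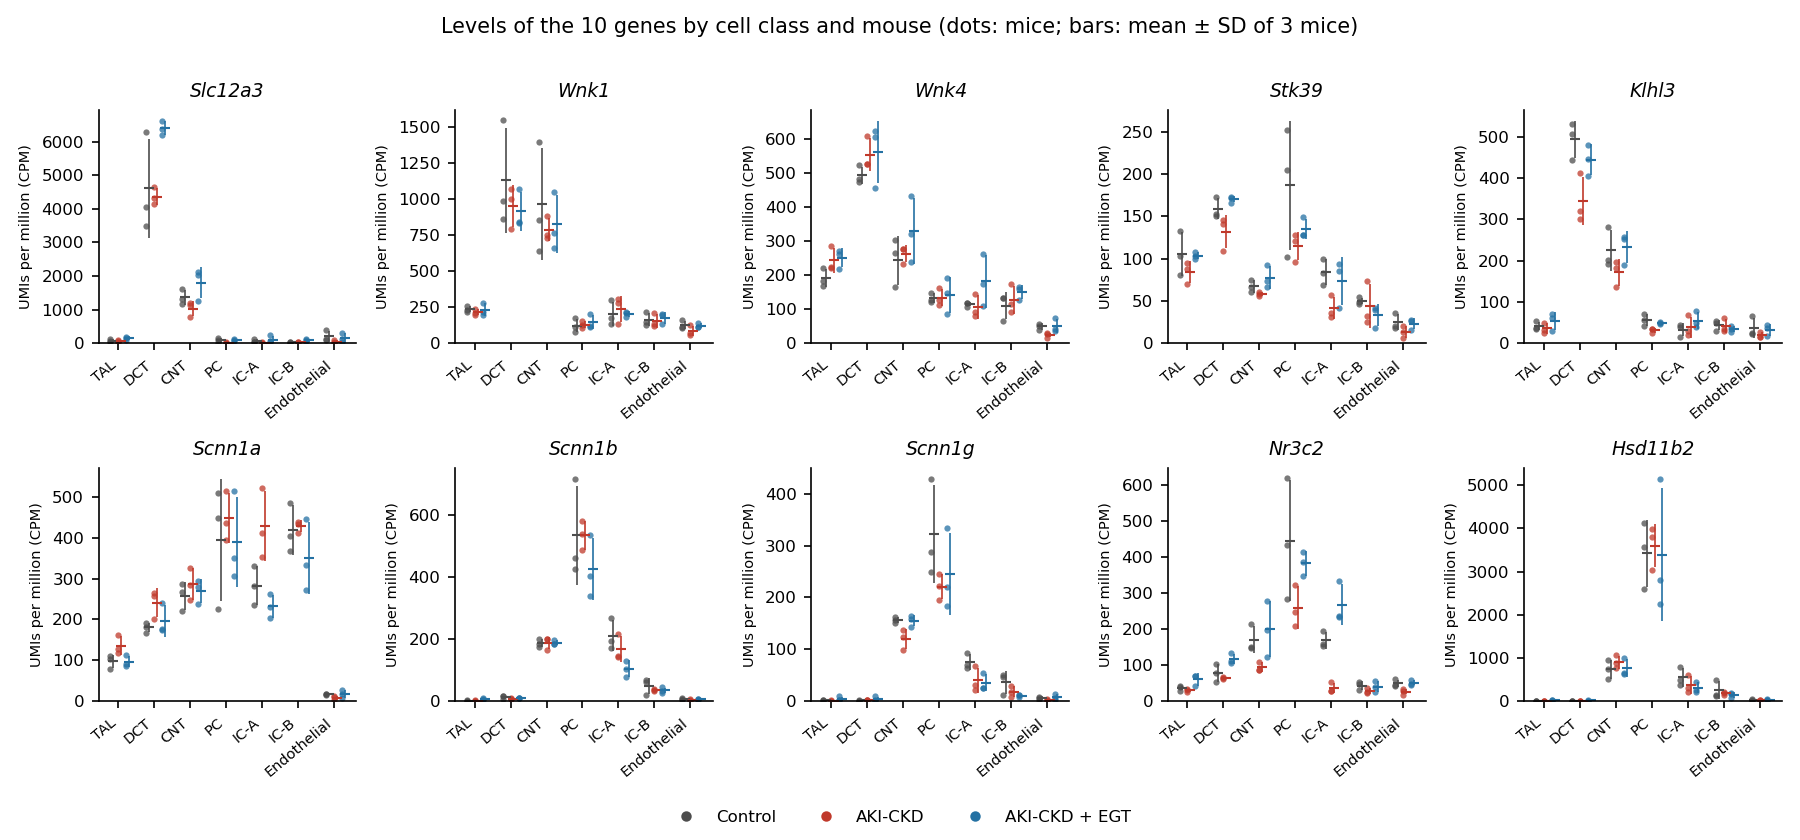
Levels of the 10 genes in the 6 distal classes and in endothelial cells, in CPM (linear axes from 0, a scale for each gene). Dots are mice and bars are the mean ± SD of 3 mice; Slc12a3, Wnk4 and Klhl3 stand highest in DCT cells, Scnn1b, Scnn1g and Hsd11b2 in PC cells, and in IC-A cells the 3 AKI-CKD mice lie below the others for Nr3c2.

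Over the 15 named classes of the whole kidney, Pearson's r of log2(CPM + 1), with the mean of 9 mice per class, was computed against 12565 genes as a description. The classes share libraries and depth. The genes likest to Slc12a3 were Trpm6 (r = 0.951), the magnesium channel of the DCT, Lrrc52 (0.949), Uroc1 (0.947), Capn6 (0.921) and its fellow member Klhl3 (0.909). Scnn1g was likest to Hsd11b2 (0.982), Ptges (0.969), Prr35 (0.967), Trpv6 (0.962) and Tbck (0.961). Hsd11b2 in turn was likest to Scnn1g (0.982), the water channel gene Aqp2 (0.973), Kcne1 (0.973), Prr35 (0.970) and Ptges (0.969).

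Between groups, few changes in these genes passed the test. Counts were summed per mouse and class and fitted over the 9 mice with edgeR's quasi-likelihood test, and a gene was called at a Benjamini-Hochberg adjusted p under 0.05 over all genes tested in that class. In AKI-CKD against Control, the only member called was Nr3c2 in IC-A cells. With EGT (AKI-CKD + EGT against AKI-CKD), the only calls were Nr3c2 and Scnn1a, again in IC-A cells. Calls were rare among all genes too, except in IC-A cells with EGT. For AKI-CKD against Control, the share of all tested genes called was 0% in TAL, 0% in DCT, 0.0343% in CNT, 0.0118% in PC, 0.021% in IC-A, 0.0387% in IC-B and 0.0199% in all kept cells. For AKI-CKD + EGT against AKI-CKD it was 0.241% in TAL, 0% in DCT, 0% in CNT, 0.0592% in PC, 4% in IC-A, 0.0194% in IC-B and 0.00496% in all kept cells. At an unadjusted p under 0.05, in the order of the 2 comparisons, were 2 and 5 of the 8 members tested in TAL cells, against 9.93% and 14.2% of the 9540 genes tested there. The 5 were Slc12a3, Klhl3, Scnn1a, Nr3c2 and Hsd11b2. Of these, Slc12a3 and Hsd11b2 (12.1 CPM) had lower means in TAL than in endothelial cells. In CNT cells the counts were 1 and 2 of 10 members, against 8.24% and 11.2% of 8754 genes. In IC-B cells they were 0 and 1 of 9 members, against 10.1% and 9.7% of 5164 genes. The shares in CNT and IC-B cells were thus near those of all genes. In these 3 classes DESeq2 called only Slc12a3 among the members, in IC-B cells with EGT, where the gene was at background, against 0.0808% of all 17335 genes with a UMI. Both comparisons share the AKI-CKD mice, so a low value in that group moves them in opposite directions.

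Slc12a3 in DCT cells overlapped between AKI-CKD and Control, and its level in the EGT-treated mice was higher by less than the test requires. The Control mice were at 6295, 4047 and 3492 CPM, the AKI-CKD mice at 4646, 4132 and 4318, and the AKI-CKD + EGT mice at 6393, 6622 and 6209. The AKI-CKD values lay inside the Control range, and the 3 EGT-treated mice lay above all AKI-CKD mice and overlapped the highest Control. The log2 fold change was -0.01 (SE 0.21, edgeR adjusted p = 0.994) for AKI-CKD against Control and 0.46 (SE 0.21, adjusted p = 0.429) with EGT against AKI-CKD. In CNT cells the same comparisons gave -0.29 (SE 0.23, adjusted p = 0.733) and 0.69 (SE 0.23, adjusted p = 0.292), and without AKI-CKD + EGT mouse 1 the latter was called at 0.84 (adjusted p = 0.0158), in a fit that called 7.68% of all genes, against 0% with all 9 mice. The sign was the same in all 6 distal classes, negative for AKI-CKD and positive for EGT, but 4 of these are classes in which the gene was at background. In proximal tubule cells, which also carry only background, Slc12a3 was at 71.7, 34.8 and 12.2 CPM in Control, 19.0, 19.5 and 7.66 in AKI-CKD and 42.6, 68.0 and 148 in the EGT-treated mice. The background itself was therefore higher in each EGT-treated mouse than in any AKI-CKD mouse, and its part in the DCT value was not tested.

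Of the kinases and adaptor that act on the cotransporter, none was called in DCT cells in either comparison (edgeR). Of the 9 members tested there, 2 had an unadjusted p under 0.05 in each comparison, against 7.82% and 11.2% of the 10147 genes tested, and DESeq2 called 0. Klhl3 had the largest difference of this set after cisplatin. Its levels were 508, 445 and 532 CPM in Control, 412, 301 and 321 in AKI-CKD and 406, 482 and 447 in the EGT-treated mice. Every AKI-CKD mouse lay below every Control, and the EGT-treated mice overlapped both. The log2 fold change was -0.45 (SE 0.18, adjusted p = 0.576) and then 0.27 (SE 0.17, adjusted p = 0.557).

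Wnk4 and Stk39, which lie upstream and downstream of each other, had small differences of opposite sign. Wnk4 was at 474, 483 and 522 CPM in Control, 609, 525 and 526 in AKI-CKD and 624, 457 and 606 in the EGT-treated mice, with a log2 fold change of 0.23 (SE 0.18) and -0.07 (SE 0.18). Stk39 was at 153, 151 and 173 CPM in Control, 142, 109 and 145 in AKI-CKD and 171, 166 and 173 in the EGT-treated mice, with -0.21 (SE 0.17) and 0.28 (SE 0.17). The AKI-CKD mice lay above Control for Wnk4 and below Control for Stk39 without overlap, by small margins. Wnk1 was at 984, 859 and 1542 CPM in Control, 1070, 788 and 996 in AKI-CKD and 1065, 834 and 838 in the EGT-treated mice, and its differences of -0.18 (SE 0.22) and -0.15 (SE 0.22) were smaller than their errors. Scnn1a in DCT cells, at 167, 191 and 182 CPM in Control and 266, 257 and 200 in AKI-CKD mice, gave 0.49 (SE 0.19, adjusted p = 0.576).

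In DCT cells 2 of 9 members, Wnk4 and Scnn1a, were higher in AKI-CKD than in Control without overlap, against 7.53% of all genes tested, and 2 of 9, Stk39 and Klhl3, were lower, against 6.16%. For AKI-CKD + EGT against AKI-CKD, 3 of 9 (Slc12a3, Stk39 and Nr3c2) were higher, against 8.95%, and 0 of 9 lower, against 8.88%. These genes were chosen as a group with earlier results known, and the counts are small.

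**Figure D2:**
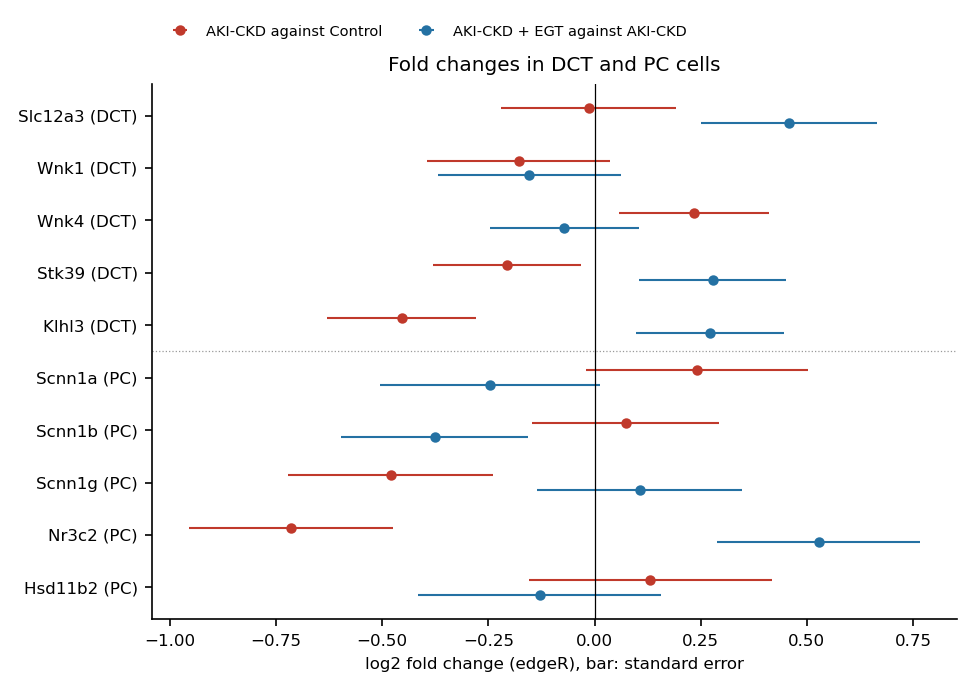
Log2 fold change of each gene in its main class, DCT for the upper 5 genes and PC for the lower 5, with the standard error as a bar. None of the 20 values passed an adjusted p of 0.05, and the values farthest from 0 are those of Nr3c2 in PC cells, -0.71 and 0.53.

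In PC cells no member was called in either comparison (edgeR), and DESeq2 also called 0. The 3 channel subunits were not tested against each other. Scnn1a was measured at 225, 448 and 510 CPM in Control, 394, 513 and 437 in AKI-CKD and 514, 306 and 349 in the EGT-treated mice, with log2 fold changes of 0.24 (SE 0.26) and -0.25 (SE 0.26). Scnn1b was measured at 460, 426 and 717 CPM in Control, 580, 538 and 486 in AKI-CKD and 535, 404 and 340 in the EGT-treated mice, giving 0.07 (SE 0.22) and -0.38 (SE 0.22). For both the 3 groups overlapped. Scnn1g was at 288, 249 and 429 CPM in Control, 221, 196 and 244 in AKI-CKD and 334, 220 and 183 in the EGT-treated mice. Its AKI-CKD mice were all below Control, and the log2 fold changes were -0.48 (SE 0.24, adjusted p = 0.364) and 0.11 (SE 0.24, adjusted p = 0.883). In CNT cells, which also make the channel, Scnn1g gave -0.27 (SE 0.18) and 0.26 (SE 0.18), and Scnn1b stayed between 164 and 199 CPM in all 9 mice.

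Hsd11b2 in PC cells was at 2584, 3557 and 4116 CPM in Control, 3791, 3984 and 3028 in AKI-CKD and 5149, 2796 and 2238 in the EGT-treated mice. The groups overlapped, and the differences of 0.13 (SE 0.29, adjusted p = 0.864) and -0.13 (SE 0.29, adjusted p = 0.880) were smaller than their errors. Nr3c2 in the same cells was at 434, 284 and 619 CPM in Control, 208, 247 and 324 in AKI-CKD and 347, 414 and 387 in the EGT-treated mice. AKI-CKD overlapped Control, and the EGT-treated mice were all above AKI-CKD. The log2 fold changes were -0.71 (SE 0.24, adjusted p = 0.190) and 0.53 (SE 0.24, adjusted p = 0.332), and without Control mouse 2 the first was called at -0.93 (adjusted p = 0.0460), where 1.83% of all genes were called. In PC cells 4 and 2 of the 10 members had an unadjusted p under 0.05, against 14.5% and 13.9% of all genes, so that the second count was near the share of all genes. Both counts included Slc12a3, which was at background in PC cells. Without overlap, 0 of 10 were higher and 2 of 10 (Klhl3 and Scnn1g) lower in AKI-CKD than in Control, against 10.8% and 9.93% of all genes, and 3 of 10 (Slc12a3, Klhl3 and Nr3c2) were higher and 0 of 10 lower with EGT, against 10% and 10%. The PC class itself was not of one make in the 3 groups. The summed level of all 7 CNT markers in it was 12588 to 18631 CPM in Control, 38128 to 43653 in AKI-CKD and 13772 to 37333 in the EGT-treated mice. When members and pathway genes entered the clustering, 1003 of its 1529 cells kept the name PC. These were 115 of 154, 135 of 202 and 96 of 136 cells of the Control mice. In AKI-CKD they were 105 of 194, 87 of 163 and 49 of 89 cells. With EGT they were 89 of 143, 170 of 230 and 157 of 218 cells. The part of these differences in the PC values was not tested.

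Nr3c2 had the same sign in all 6 distal classes, negative for AKI-CKD against Control (log2 -2.06 to -0.22) and positive for AKI-CKD + EGT against AKI-CKD (0.52 to 2.76). In TAL (42.7 CPM) and IC-B cells (37.2 CPM) its mean was near or below the 42.3 CPM of endothelial cells. In CNT cells it was at 214, 151 and 149 CPM in Control, 86.5, 85.9 and 110 in AKI-CKD and 123.3, 199 and 279 in the EGT-treated mice. The AKI-CKD mice lay below all the others, with differences of -0.76 (SE 0.25, adjusted p = 0.548) and 0.98 (SE 0.25, adjusted p = 0.248). In DCT cells it was at 102, 78.1 and 54.0 CPM in Control, 63.6, 66.1 and 61.9 in AKI-CKD and 105, 112 and 133 in the EGT-treated mice, and the second difference was 0.77 (SE 0.22, adjusted p = 0.307). TAL cells gave 0.99 (SE 0.24, adjusted p = 0.0766) for the second comparison. With the first EGT-treated mouse (AKI-CKD + EGT mouse 1) left out, the rise passed in both CNT (1.21, adjusted p = 0.00529) and TAL cells (1.16, adjusted p = 0.00978), but calls over all genes rose in these fits too, to 7.68% in CNT and 3.39% in TAL cells. Outside the distal nephron, endothelial cells held 61.6, 45.1 and 41.8 CPM in Control, 29.2, 32.8 and 17.5 in AKI-CKD and 48.3, 46.1 and 58.6 in the EGT-treated mice, the same order of groups. Malat1, a long noncoding RNA that stays in the nucleus, was ordered likewise in PC cells, at 12061 to 17331 CPM in Control, 5996 to 7253 in AKI-CKD and 10072 to 18484 in the EGT-treated mice, and its relation to Nr3c2 between groups was not tested apart from the split by cluster given further on.

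**Figure D3:**
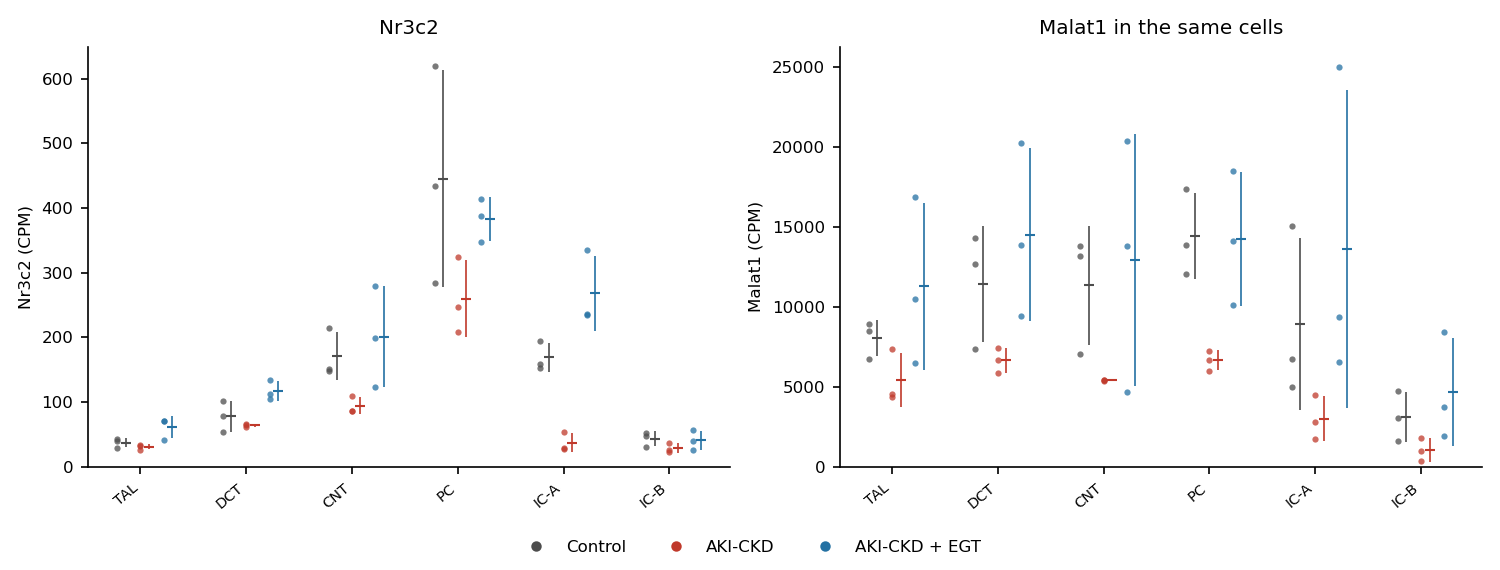
Nr3c2 (left) and Malat1 (right) in CPM in the 6 distal classes, linear axes from 0; dots are mice and bars the mean ± SD of 3 mice. In both panels the mean of the AKI-CKD mice is the lowest of the 3 groups in each class, and for Nr3c2 the log2 fold changes are farthest from 0 in IC-A cells, at -2.06 and 2.76.

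IC-A cells held the only calls. Type A intercalated cells secrete acid and are not the main site of ENaC, but the receptor is known from them. Nr3c2 was measured at 195, 159 and 153 CPM in Control mice, 54.0, 27.6 and 29.0 with cisplatin alone and 234, 235 and 335 in the EGT-treated mice, from 48, 40 and 20 UMIs, 20, 7 and 4 UMIs and 34, 74 and 128 UMIs. The AKI-CKD mice lay below all 6 others, and the EGT-treated mice above all Control mice. Nr3c2 fell in AKI-CKD against Control by 2.06 on the log2 scale (SE 0.34, edgeR adjusted p = 0.0341) and rose by 2.76 in AKI-CKD + EGT against AKI-CKD (SE 0.32, adjusted p = 0.000286). Scnn1a went the other way, and its sign was the same in all 6 distal classes. It was positive for AKI-CKD (log2 0.07 to 0.63) and negative for EGT (-0.90 to -0.19), and called only in IC-A cells with EGT. In IC-A cells Scnn1a was at 235, 330 and 283 CPM in Control, 353, 411 and 523 in AKI-CKD and 262, 229 and 204 in the EGT-treated mice. The differences were 0.63 (SE 0.24, adjusted p = 0.450) and then a fall of 0.90 (SE 0.24, adjusted p = 0.0442). The other 8 members were not called in these cells. Here 3 and 5 of 10 members had an unadjusted p under 0.05 (edgeR), against 8.75% and 19% of 4755 genes. The 5 included Slc12a3, at background in IC-A cells. Without overlap, 1 (Scnn1a) was higher and 3 (Slc12a3, Stk39 and Nr3c2) lower in AKI-CKD than in Control, against 439 and 378 of all genes. With EGT 1 (Nr3c2) was higher and 2 (Scnn1a and Scnn1b) lower, against 551 and 525.

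The IC-A calls depended on which cells were counted as IC-A. The summed level of all 6 IC-B markers in the class was 1115 to 2636 CPM in Control, 939 to 1190 in AKI-CKD and 1935 to 3176 in the EGT-treated mice. That of all 7 markers of PC, the class with the highest level of Nr3c2, was 1350 to 1894 CPM, 648 to 1132 CPM and 834 to 2541 CPM, and that of all 10 proximal markers was 12910 to 49361 CPM, 16129 to 25751 CPM and 28823 to 54570 CPM. The PC markers were thus lower in AKI-CKD than in Control, and the IC-B and proximal markers higher with EGT than in AKI-CKD, without overlap. The markers of the class itself were lower with EGT, also without overlap, at 2185 to 3799 CPM against 4223 to 4355 in AKI-CKD for all 6 IC-A markers and 3785 to 6087 against 7944 to 8560 CPM for all 5 markers common to intercalated cells. The part of these marker levels in the calls was not tested. Malat1 was at 6753, 15056 and 4981, then 4487, 2795 and 1698, then 6528, 9336 and 24996 CPM. When the members and pathway genes were let into the clustering, 140 of the 527 cells were named IC-B instead, namely 13 of 57, 23 of 65 and 3 of 33 cells of the Control mice, 2 of 67, 3 of 55 and 4 of 28 cells of the AKI-CKD mice and 5 of 30, 35 of 87 and 52 of 105 cells of the EGT-treated mice. In that IC-A class Nr3c2 differed by -1.52 and 1.23 and was not called, while in the IC-B class of the same clustering it was called with EGT at 2.11 (edgeR adjusted p = 0.000841), as were 2.13% of all genes. The genes tested could take part in forming these classes, so neither outcome is an independent test of them. Clustering without Harmony gave the same pattern, with no call in IC-A cells and one in IC-B cells with EGT at 2.19 (adjusted p = 0.000585, with 3.07% of all genes called). In the 329 cells named IC-A in all 3 clusterings it differed by -1.39 and 1.28, again without a call. With IC-A and IC-B cells pooled it gave -1.51 (SE 0.27, adjusted p = 0.0628) and rose by 1.99 with EGT (SE 0.25, adjusted p = 0.000451, with 1.98% of all genes called). Leaving out single mice also ended the first call, with an adjusted p of 0.116 without Control mouse 1, 0.0733 without Control mouse 2, 0.521 without AKI-CKD mouse 2 and 0.229 without AKI-CKD mouse 3. The call of Scnn1a was lost, with a fold change between -1.05 and -0.76, without any one of the 3 AKI-CKD mice (adjusted p = 0.0707, 0.128 and 0.166) or without AKI-CKD + EGT mouse 2 (0.131) or 3 (0.227). In all, Scnn1a kept its call in 4 of 17 alternatives. It was not called by DESeq2 (0.0523) or in a fit of the 6 mice compared (0.0544), with members in the clustering (-0.52), without Harmony (-0.32) or with both intercalated classes pooled (-0.55, adjusted p = 0.136).

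Within the tubule classes, 1 cluster each in TAL, DCT, CNT and PC had a much higher level of Malat1 than the others, and several members were concentrated in it. The clusters were made from these same cells, so the contrast between clusters is a description. Slc12a3 in the DCT cluster was at 9265 ± 1883 CPM in Control, 9325 ± 322 in AKI-CKD and 12764 ± 225 in the EGT-treated mice (n = 3 each), and in the rest of the class at 1693 ± 473, 2234 ± 444 and 2269 ± 651 CPM. Klhl3 was at 823 ± 116 CPM in the cluster and 298 ± 47.9 CPM in the rest in Control mice, whereas Wnk4 differed less, at 595 ± 96.9 and 438 ± 8.40 CPM. In PC cells the contrast was marked for Nr3c2, at 764 ± 249 CPM in the cluster against 118 ± 38.6 in the rest in Control mice, and was not seen for Hsd11b2, at 3089 ± 892 against 3695 ± 664 CPM.

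The share of cells in this cluster differed between mice. Among DCT cells it made up 31.0 ± 9.80% in Control mice, 21.8 ± 2.76% in AKI-CKD mice and 29.4 ± 5.40% in EGT-treated mice, and among PC cells 47.1 ± 8.11%, 27.1 ± 2.04% and 43.2 ± 11.4%. In PC cells each AKI-CKD mouse (25.2 to 29.2%) was below every mouse of the other groups (30.1 to 53.9%). Inside the cluster, Nr3c2 in PC cells overlapped between groups, at 764 ± 249, 768 ± 256 and 744 ± 125 CPM, and in the rest at 118 ± 38.6, 95.3 ± 3.75 and 105 ± 3.21. Its log2 fold changes of -0.71 and 0.53 over the whole class were -0.25 and 0.13 without the cluster and -0.05 and 0.00 within it. Inside the cluster of CNT cells Nr3c2 was at 465 to 613 CPM in Control, 232 to 384 in AKI-CKD and 442 to 693 in the EGT-treated mice, with -0.68 (SE 0.25, adjusted p = 0.267) and 0.81 (SE 0.25, adjusted p = 0.102). Inside the DCT cluster it was at 150.4 to 191 CPM in Control, 160.1 to 190.0 in AKI-CKD and 229 to 280.4 CPM with EGT, with 0.0694 (SE 0.22) and 0.46 (SE 0.21, adjusted p = 0.476). Inside the TAL cluster it was at 86.3 to 125 CPM, 73.7 to 126 CPM and 151 to 211 CPM, with 0.0840 (SE 0.28) and 0.83 (SE 0.26, adjusted p = 0.211). Without the cluster the values were -0.13 and 0.60 in DCT and -0.35 and 0.66 in TAL cells. In these 3 clusters the EGT-treated mice lay above all AKI-CKD mice, while AKI-CKD lay below Control only in CNT cells and overlapped it in the DCT and TAL clusters, and no difference was called. For Slc12a3 in DCT cells, the difference with EGT of 0.46 was -0.01 (SE 0.23) without the cluster and 0.36 (SE 0.21, adjusted p = 0.559) within it. This split was added after the data had been seen.

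**Figure D4:**
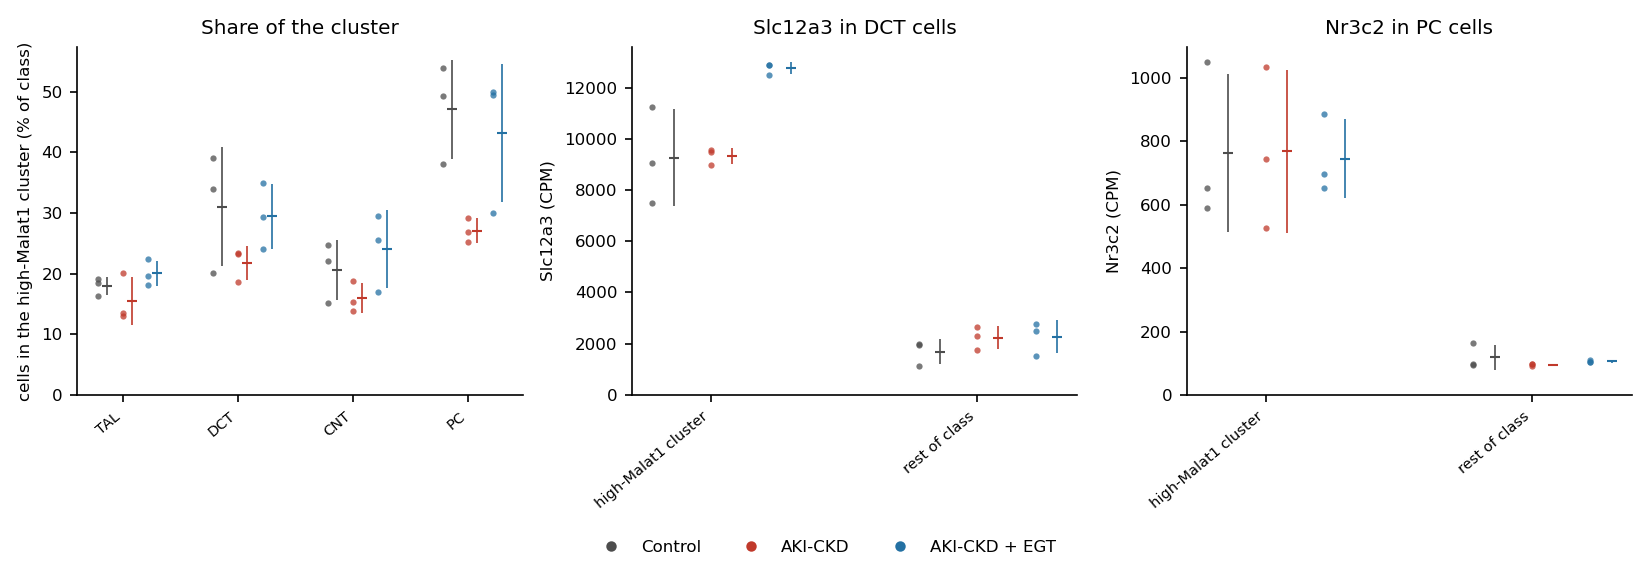
Left, the share of each class that lay in its high-Malat1 cluster, in percent; middle and right, Slc12a3 in DCT cells and Nr3c2 in PC cells inside that cluster and in the rest of the class, in CPM. Dots are mice and bars the mean ± SD of 3 mice; Slc12a3 is highest in the cluster of the EGT-treated mice, at 12764 ± 225 CPM, and Nr3c2 in the PC cluster overlaps between the 3 groups.

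Over all kept cells, which stand in for a whole-kidney sample, no member was called by edgeR, and 6 of 10 were higher with EGT than in AKI-CKD without overlap between mice. Slc12a3 was at 195, 119 and 73.2 CPM in Control, 102, 132 and 50.7 in AKI-CKD and 232, 226 and 422 in the EGT-treated mice, a log2 fold change of -0.39 (SE 0.35, adjusted p = 0.784) and then 1.40 (SE 0.36, adjusted p = 0.318). Nr3c2 gave 1.24 (SE 0.26), Stk39 1.03 (SE 0.25), Scnn1g 0.76 (SE 0.26) and Klhl3 0.74 (SE 0.18) for the second comparison. The highest value of Slc12a3 came from AKI-CKD + EGT mouse 3, and with that mouse left out its difference was 1.15 (SE 0.38, adjusted p = 0.847), as it was 1.13 (adjusted p = 0.824) with AKI-CKD mouse 3 left out, and the part of the barcodes removed from AKI-CKD + EGT mouse 3 in these values was not tested. All 10 values were positive, with a median of 0.65 against -0.01 over all genes tested, and 6 of 10 had an unadjusted p under 0.05, against 12.7% of all genes. The positive sign was not common to all 10 without AKI-CKD mouse 3 (Scnn1b -0.0379 and Hsd11b2 -0.11) or without AKI-CKD + EGT mouse 1 (Hsd11b2 -0.0240). DESeq2 called 4 (Slc12a3, Stk39, Klhl3 and Nr3c2), against 0.667% of all 32233 genes with a UMI, a wider base than the 20144 genes tested by edgeR. The 6 of 10 that were higher without overlap stood against 8.53% of all genes, and 0 of 10 were lower, against 9.73%. In AKI-CKD against Control 1 of 10 had an unadjusted p under 0.05, against 8.02% of all genes, 0 of 10 were higher without overlap, against 8.7%, and 4 of 10 (Wnk1, Stk39, Klhl3 and Nr3c2) lower, against 7.11%. DCT cells made up 2.10 ± 0.24% of the kept cells of Control mice, 1.70 ± 0.68% of those of AKI-CKD mice and 3.39 ± 0.98% in the EGT-treated mice (exact two-sided permutation p = 0.4 and 0.1, where 0.1 is the smallest possible with 3 mice against 3). The mean shares of the other distal classes were also higher with EGT than in AKI-CKD. They were 3.21 against 2.04% in TAL, 2.39 against 1.69% in CNT and 1.05 against 0.688% in PC cells. For IC-A they were 0.394 against 0.232% and for IC-B 0.577 against 0.318% (permutation p = 0.3 to 0.5). In these sums more cells of a type and more RNA per cell cannot be told apart. Within classes, the EGT difference of Scnn1a was negative in 6 of 6, of Scnn1b in 4 of 5 and of Hsd11b2 in 4 of 6. The median over members within DCT cells was 0.27.

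Of 21 regulators of the pathway, 10 of WNK and SPAK and 11 of aldosterone and ENaC, 2 were called, both in IC-A cells with EGT against AKI-CKD, where 14 of the 21 were tested and 4% of all genes were called. Nedd4l, the ubiquitin ligase that removes ENaC from the membrane, rose by 1.61 (SE 0.31, edgeR adjusted p = 0.00790) and Ppp3ca, a calcineurin catalytic subunit, by 1.21 (SE 0.33, adjusted p = 0.0480). For Nedd4l the sign turned, to -0.15, when members and pathway genes, itself among them, entered the clustering. It was -0.18 without Harmony, where these genes stayed out. The call was lost without AKI-CKD + EGT mouse 3 (1.28, adjusted p = 0.0805). Ppp3ca kept its call in only 4 of 17 alternatives. Among the others, it was not called by DESeq2 (1.20, adjusted p = 0.186) or without a filter on low counts (1.12, adjusted p = 0.0836). Nor was it called with any one of the 3 AKI-CKD mice left out (1.01 to 1.33, adjusted p = 0.0998 to 0.223). The call was lost without AKI-CKD + EGT mouse 2 (1.28, adjusted p = 0.0789) or 3 (1.18, adjusted p = 0.204). With the replicate number as a block Ppp3ca gave 1.28 (adjusted p = 0.0790). Under either other clustering it gave 0.85 and 0.75 (adjusted p = 0.579 and 0.839). In the cells named IC-A in all 3 clusterings it gave 0.73 (adjusted p = 0.868). By edgeR 0 of the 21 were called in the other 5 distal classes or in all kept cells. At an unadjusted p under 0.05 there were 4 and 7 of 19 tested in TAL, against 9.93% and 14.2% of all genes, 2 and 2 of 19 in DCT, against 7.82% and 11.2% of all genes, 4 and 2 of 19 in CNT, against 8.24% and 11.2%, and 1 and 4 of 19 in PC cells, against 14.5% and 13.9%. In IC-A cells there were 2 and 5 of 14, against 8.75% and 19% of all genes, in IC-B cells 3 and 3 of 18, against 10.1% and 9.7%, and in all kept cells 3 and 7 of 21, against 8.02% and 12.7%. Outside IC-A cells DESeq2 called 1, Nedd4l in PC cells for AKI-CKD against Control, against 0.483% of all 20721 genes with a UMI. The 11 aldosterone and ENaC regulators had medians of -0.24 and -0.11 in DCT cells, against -0.02 and 0.00 over all genes, and -0.29 and 0.21 in PC cells, against -0.02 and 0.02. Nedd4l in PC cells gave -1.32 (SE 0.25, adjusted p = 0.0551) in AKI-CKD against Control. The WNK and SPAK regulators, 8 of 10 tested, had medians of 0.02 and 0.08 in DCT cells, where Cab39l, an adaptor of SPAK, gave -0.36 (SE 0.21) for AKI-CKD and Oxsr1, the kinase closest to SPAK, gave 0.37 (SE 0.22) with EGT.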

How the data were processed

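RNA was measured in single cells of 9 kidneys, with DNBelab C4 droplets and poly(dT) capture. The deposited matrices hold UMI counts per gene and cell, made by the authors with PISA 1.0 on GRCm39, already limited to barcodes of at least 1000 UMIs. From these counts, cells were kept when they had 500 genes or more and mitochondrial UMIs of 15% or less. Cells were embedded on 2000 variable genes without the 10 members, the pathway genes, mitochondrial and ribosomal protein genes, in 30 components, corrected by Harmony, and clustered (20 neighbours, Leiden resolution 1.1, scanpy 1.11.5, leidenalg 0.10.2). Distal clusters were then clustered again. A cluster was named from fixed marker lists where at least 3 markers were raised 1.5-fold; the naming thresholds were set after the clusters had been seen, and the classes may differ from the study's. Scrublet marked at most 1 cell per library, so doublets were treated only by leaving out the 6% of highest scores as an alternative. Counts were summed per mouse and class (at least 20 cells) and tested with edgeR 4.0.16 (filterByExpr, TMM, quasi-likelihood F test, Benjamini-Hochberg, R 4.3.3) in a fit of the 9 mice, checked on simulated data. The standard error is the absolute log2 fold change over the square root of F. DESeq2 1.42.0 was an alternative. Its shares of genes called are over all genes with a UMI, without the edgeR filter, so the 2 kinds of share have different bases. Mice of different groups that share a number were not treated as paired, and the labels do not say that they are. Named genes were the 10 members, pathway genes called, up to 2 examples per list and class, and the 5 likest genes of Slc12a3, Scnn1g and Hsd11b2. The members and lists were chosen with earlier results of these data known. A further list of distal transport genes is not reported here.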

Additional observations from a re-analysis of the deposited data

How the results depend on the processing

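The 445 alternative values were of 25 log2 fold changes, those of the 10 members in their main class and those called in IC-A cells. Of these values, 380 kept their direction and their side of the threshold. A further 24 changed sign, 40 lost a call with the sign unchanged and 1 gained a call. The changes of sign of Nedd4l in IC-A cells also ended its call. Only the fold changes in IC-A cells were called in the reported fit. Of 17 alternatives each, Nr3c2 kept its call in 7 for AKI-CKD and 14 for EGT. For EGT, Scnn1a kept its call in 4, Ppp3ca in 4 and Nedd4l in 13. The 120 alternative levels by class all moved by less than the SD over mice. For the levels with 1 mouse left out this could not have come out otherwise. Leaving out 1 mouse cannot move the mean by as much as that SD. Only the levels from the other changes were therefore tested in this way. The 10 shares of cells with a UMI all fell when cells were thinned, but removing UMIs cannot raise such a share, so this was not a test. Calls over all genes depended on the test and the mice: in DCT cells for EGT they went from 0 to 201 and in IC-A cells from 190 to between 0 and 557. There were 3 mice per group and few UMIs of Nr3c2 per mouse in IC-A cells. The smallest difference that these fits could call was not measured, so a gene not called is not shown to be unchanged.

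The number of members called changed with the processing. In the fit reported, 0 members were called in TAL, CNT, PC, IC-B and all kept cells. Calls over all genes changed too. With no single mouse left out, for EGT they reached 319 in TAL, 197 in CNT, 229 in PC, 192 in IC-B and 414 in IC-A cells. The fit reported called 23, 0, 5, 1 and 190. For AKI-CKD they reached 214 in PC and 65 in IC-A cells, against 1 in each. Where no count over all genes stands beside member calls below, whether they exceeded this rise was not tested. Without a filter on low counts, 2 members were called in TAL, 1 in CNT, 1 in PC and 1 in IC-B cells for EGT. For AKI-CKD it was 1 in PC and 2 in IC-A cells, and in IC-A cells for EGT 3 against 2. The calls absent from the reported fit were of Nr3c2 in TAL and CNT cells. All other added calls were of Slc12a3, in classes where it was at background. DESeq2 called 1 in IC-B, 1 in IC-A and 4 in all kept cells for EGT. A fit of only the 6 mice compared called 1 in PC cells (Slc12a3) and 1 in IC-A cells (Nr3c2) for EGT. With members and pathway genes in the clustering, 1 was called in TAL (Slc12a3), 2 in IC-B (Slc12a3 and Nr3c2) and 0 in IC-A cells for EGT. In that IC-B fit 130 of all genes were called. The genes tested could take part in forming these classes, so the counts from this clustering are not an independent test. For AKI-CKD 0 were called in IC-A cells. Slc12a3 was at background in PC, TAL and IC-B cells. Without Harmony, 2 were called in IC-B and 0 in IC-A cells for EGT and 0 in IC-A cells for AKI-CKD. With at most 10% mitochondrial UMIs, 0 and 1 were called in IC-A cells. In cells of the same class in all 3 clusterings it was 0 and 0, and with IC-A and IC-B together 0 for AKI-CKD. With 1 mouse left out the counts for EGT ranged from 0 to 2 in TAL, 0 to 2 in CNT, 0 to 1 in IC-B and 1 to 4 in IC-A cells, and for AKI-CKD from 0 to 1 in PC and 0 to 1 in IC-A cells. Without AKI-CKD + EGT mouse 1 the EGT counts were 2 in TAL, 2 in CNT, 1 in IC-B and 4 in IC-A cells, where 339, 697, 18 and 557 of all genes were called. Without Control mouse 2 or Control mouse 3 the count in PC cells for AKI-CKD was 1, among 156 and 2 of all genes. The gene was Nr3c2 without Control mouse 2 and Slc12a3, at background in PC cells, without Control mouse 3.

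Nr3c2 in IC-A cells for AKI-CKD lost its call at -1.91 with at most 10% mitochondrial UMIs, -1.52 with members in the clustering, -1.42 without Harmony, -1.39 in the cells of all 3 clusterings and -1.51 with both intercalated classes together, and ranged from -2.52 to -1.85 with 1 mouse left out. For EGT it lost its call at 1.23 with members in the clustering, 1.30 without Harmony and 1.28 in the cells of all 3 clusterings. Scnn1a in IC-A cells for EGT lost its call at -0.93 by DESeq2, -0.90 with 6 mice, -0.85 with at most 10% mitochondrial UMIs, -0.52, -0.32 and -0.33 under those same 3 changes and -0.55 with both classes together, and ranged from -1.05 to -0.76 with 1 mouse left out. Nedd4l there turned to -0.15, -0.18 and -0.20 under them. The cause was not tested.

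Of the uncalled values, Slc12a3 in DCT cells for AKI-CKD turned to 0.00394 without the filter, 0.00208 without the cells of highest doublet score, 0.43 without the high-Malat1 cluster and 0.0565 within it, and ranged from -0.18 to 0.28 with 1 mouse left out (0.28 without Control mouse 1). Without that cluster, EGT gave -0.0122 for Slc12a3 and -0.12 for Stk39 in DCT cells and -0.0479 for Scnn1g in PC cells, and AKI-CKD gave -0.0280 for Hsd11b2 in PC cells. Within it, Scnn1g in PC cells gave -5.25e-05 for EGT. With 1 mouse left out, for AKI-CKD, Wnk1 in DCT cells ranged from -0.33 to 0.11, and in PC cells Scnn1a from -0.0159 to 0.41, Scnn1b from -0.0297 to 0.26 and Hsd11b2 from -0.00851 to 0.25. For EGT, Wnk4 in DCT cells ranged from -0.16 to 0.0615, and in PC cells Scnn1g from -0.19 to 0.26 and Hsd11b2 from -0.58 to 0.0808.

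The mice share replicate numbers across groups, and the correlations of their deviations ranged from -0.45 to 0.38. Mice with different numbers were not compared in this way, so these values cannot settle whether the numbers pair them. With the replicate number as a block, 0 members were called in IC-A cells for AKI-CKD (Nr3c2 at -2.09) and 1 for EGT (Scnn1a at -0.90 was not called), and Slc12a3 in DCT cells for AKI-CKD was at 0.0195.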
